A study of Homo sapiens with 4 samples.

Results

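The mRNAs described here encode the m6A writers, the proteins that place N6-methyladenosine on RNA. METTL3 carries the catalytic site of the main writer complex and METTL14 is its structural partner. WTAP, VIRMA, ZC3H13, CBLL1 (also called HAKAI), RBM15 and RBM15B are further subunits of the complex, whereas METTL16 is a separate methyltransferase that acts on structured RNAs. IGF2BP3 is an RNA-binding protein that the study treats as a reader of this mark. A peak on these mRNAs is thus a call of writer RNA in the pull-down of a reader. Such a call does not by itself show binding, since most of these peaks were not significant after the caller's correction for multiple testing. The 9 genes were listed by name, and their peaks were those with a summit in an exon of GENCODE release 44. They came to 38 of the 44622 peaks of replicate 1 and 35 of the 42723 peaks of replicate 2, or 73 of 87345 in all.

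The deposited series holds 4 samples of OE-19 cells, an adenocarcinoma line from the esophagogastric junction that is established in culture, without any treatment or genetic change named in the labels. Of these, 2 were IGF2BP3 RNA immunoprecipitation (RIP) replicates, in which an antibody pulls the protein and its RNA from a cell lysate. The labels name UV fixation before lysis, whereas the RIP method of the study names no such step. The other 2 were inputs, which carried no antibody and whose values were not analysed here. Every sample therefore comes from 1 cell line, and the study calls the replicates biological, but neither it nor the labels say that they were separate cultures, so SD values measure only the spread between these samples.

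Each deposited peak carries a fold enrichment, which is the ratio of RIP pileup to local background at the summit, and a q, which is the caller's p corrected for multiple testing. These are the values of the authors' caller, made on each replicate separately. Read depth is unknown, and no test between groups could be made from the lists. A gene without a peak is a gene without a call, which does not show that its mRNA was unbound. The lists do not measure expression either. Of the epithelial markers CDH1 had 4 and 8 exonic peaks in replicates 1 and 2, while EPCAM, KRT8, KRT18 and ERBB2 had 0. The leukocyte marker PTPRC and the endothelial marker PECAM1 had 0, and the fibroblast marker COL1A1 had 0 and 5.

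The letters at the sites that both replicates called are given first, because these are the sites where the lists overlap. No peak at these sites had a q of at most 0.05. A peak was shared where it overlapped a peak of the other list by at least 1 bp. For each writer mRNA with a shared peak other than VIRMA, the shared pair with the highest mean fold was taken, and 29 nt of the mRNA around each summit were read 5′ to 3′ from the GENCODE transcript (GRCh38). Capitals mark the 5 bases centred on the summit. The METTL16 site lies in exon 5 (minus strand, chr17:2467815-2467843 for replicate 1 and chr17:2467783-2467811 for replicate 2). The ZC3H13 site lies in exon 18 (minus strand, chr13:45959554-45959582 and chr13:45959558-45959586). For CBLL1 the summits are at positions 107755481 and 107755490 of chromosome 7 (plus strand) in exon 5, and the windows run across the junction into exon 6.
METTL16 replicate 1: atgctcttaaagAAGAAtctgagataatc
METTL16 replicate 2: gacttttgcatgTGCAAccctcccttttt
ZC3H13 replicate 1: agaaagagcaagTCTTCttagtaatcttg
ZC3H13 replicate 2: aagaagaaagagCAAGTcttcttagtaat
CBLL1 replicate 1: aaaagggagataAGATGtgtccaggctgt
CBLL1 replicate 2: ataagatgtgtcCAGGCtgtagtgatcct
All 6 windows lie in coding sequence. None of the 6, which come from 3 sites, holds GGAC, the core of the m6A consensus. Most summits lack it this close, since GGAC was present in 17.8% of windows reaching 25 nt to either side of summits on all mRNAs. VIRMA, whose letters are not printed here, held 6 of the 16 shared pairs and had GGAC within 50 nt of 10 of its 25 summits. For the printed sites, the nearest GGAC along the mRNA starts 319 and 287 nt from the METTL16 summits, 188 and 192 nt from the ZC3H13 summits, and 157 and 166 nt from the CBLL1 summits.

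IGF2BP3 peaks were spread unevenly over the writer mRNAs. CBLL1 and VIRMA carried the most per length, and METTL3 and RBM15B carried none. Of the 9 writers, 6 carried exonic peaks in each replicate (METTL14, METTL16, WTAP, VIRMA, ZC3H13 and CBLL1), beside 28.0% of all 20033 protein-coding genes. RBM15 had 1 in replicate 1 and none in replicate 2, as did 4.58% of protein-coding genes, and METTL3 and RBM15B joined the 63.8% with none in either. Long mRNAs more often had peaks in both replicates. The share was 16.4% of genes with a canonical mRNA of 1696 to 2885 nt, where METTL3 and WTAP fall, 37.5% at 2886 to 4753 nt, where RBM15 and CBLL1 fall, and 53.4% from 4754 nt up, where METTL14, METTL16, VIRMA, ZC3H13 and RBM15B fall. RBM15B alone in this longest class had no peak. In number, the writer mRNAs held 36.5 ± 2.12 exonic peaks per replicate (SD, n = 2).

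**Figure D1:**
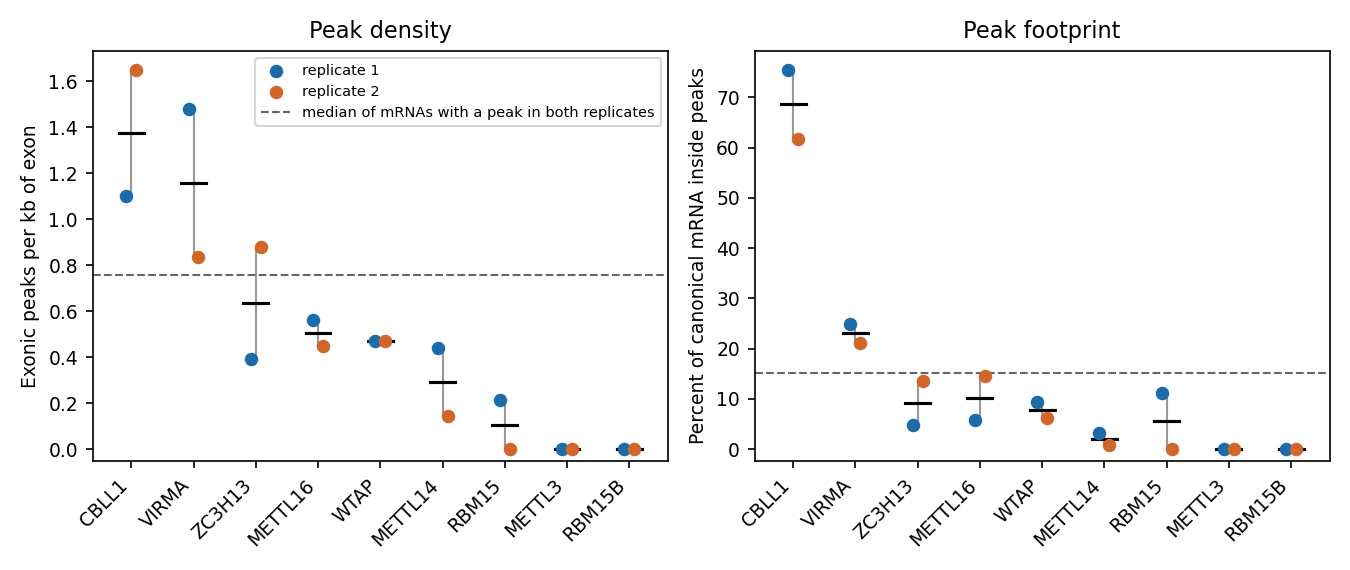
Exonic peaks per kb of exon (left) and percent of the canonical mRNA inside those peaks (right) for the 9 writer genes, with a point per replicate, a bar at the mean and a dashed line at the median of the 5619 protein-coding genes with a peak in both replicates. CBLL1 and VIRMA lie above the line in both replicates on both scales, and the means of the other seven lie below it.

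CBLL1 encodes a RING-type E3 ubiquitin ligase that also belongs to the writer complex. The gene (ENSG00000105879.13) spans positions 107743073 to 107761667 of chromosome 7 on the plus strand. It had 6 exonic peaks in replicate 1 and 9 in replicate 2, which is 1.10 and 1.65 peaks per kb of exon. Their mean of 1.37 ± 0.389 per kb (SD, n = 2) was the highest of the 9 writers and stood at percentile 77.9 of protein-coding genes with a peak in both replicates. Merged exons of all transcripts came to 5.46 kb for CBLL1 and 10.8 kb for VIRMA, against canonical mRNAs of 3987 and 6478 nt. The order of CBLL1 and VIRMA thus depends on which length is used.

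Much of the CBLL1 mRNA lay inside peaks. They covered 3012 nt of the 3987 nt mRNA in replicate 1 and 2463 nt in replicate 2. The mean was 68.7% ± 9.74 (SD, n = 2), and 53.5% of the mRNA lay in peaks of both replicates. Across the 5619 protein-coding genes with a peak in both replicates the median was 15.1%, and CBLL1 stood at percentile 96.7, with 184 genes (itself included) at or above it. The values of the other eight writers lay between 0 and 23.1%. With so much of CBLL1 covered in each replicate, some common cover would arise wherever the peaks lay. Common cover beyond that was not tested.

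The CBLL1 footprint came largely from the last exon, exon 6, which is 3525 nt long. There replicate 1 had a peak of 1840 bp (mRNA positions 486 to 2325) and replicate 2 a peak of 1257 bp (497 to 1753), and both run across the stop codon. These were the only 2 writer peaks wider than 1000 bp. Their summits were 99 nt apart, with folds of 3.38 and 3.28. Further shared peaks followed in the 3′ UTR, and exons 3, 4 and 5 each held a shared pair. Every replicate 1 peak on CBLL1 (6 of 6) and 8 of 9 replicate 2 peaks met a peak of the other list. Since peaks covered 75.5% and 61.8% of this mRNA, an overlap of 1 bp is a weak measure of a common site here. No CBLL1 peak reached a q of 0.05. The smallest q was 0.108, for the exon 5 peak of replicate 2, where the fold was 4.49 against 2.66 in replicate 1.

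UGGAC is a sequence that the study ties to IGF2BP3, and its DNA spelling TGGAC occurred within 50 nt of 3 CBLL1 summits, at 2 places. Both are shown because they are the only writer sites of this sequence near a shared peak outside VIRMA, whose letters are not printed. Capitals mark TGGAC.
CBLL1 exon 3, chr7:107753475-107753503: gcgaagatttccTGGACaccttttttggg
CBLL1 exon 6, 3′ UTR, chr7:107761256-107761284: tagcctatgtatTGGACgagaaaatcagt
The centre of the exon 3 site lay 26 nt past the replicate 1 summit in exon 3 and 28 nt before a replicate 2 summit in exon 4. No called peak held this site. The exon 3 peaks ended at 107753466 and 107753462, and the exon 4 peaks began at 107753894 and 107753897, in replicates 1 and 2. In the 3′ UTR, the centre lay 6 nt past a replicate 2 summit with a fold of 2.41.

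VIRMA is the large scaffold subunit that links the catalytic and regulatory parts of the complex. The gene (ENSG00000164944.12, chromosome 8, 94487689 to 94553529, minus strand) has a canonical mRNA of 6478 nt, of which 5436 nt are coding. Replicate 1 had 16 exonic peaks and replicate 2 had 9, the largest difference in count between replicates for any writer. The density was 1.48 and 0.835 peaks per kb, a mean of 1.16 ± 0.459 (SD, n = 2). Summits fell in 18 of the 24 exons, and all 25 lay in coding sequence, from codon 96 to codon 1807 of 1812. Of the VIRMA peaks, 6 in replicate 1 and 5 in replicate 2 were shared, in exons 6, 9, 13, 15 and 22.

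The 2 writer peaks with a q of at most 0.05 were both on VIRMA, at different sites. In replicate 1 the peak lay in exon 21 (fold 5.68, q = 0.00177, from the authors' caller). In replicate 2 it lay in exon 4 (fold 5.07, q = 0.00378, from the authors' caller). Neither was shared. They lie at opposite ends of the coding sequence, with summits at 88.1% and 5.26% of its length. The mean of the highest folds, 5.37, stood at percentile 90.7 of protein-coding genes with a peak in both replicates. These are maxima over 16 and 9 peaks. The median fold over all VIRMA peaks was 2.82, below the medians of 2.95 and 2.93 for exonic peaks of all protein-coding genes in replicates 1 and 2. VIRMA was the sole writer with a peak at a q of at most 0.05 in each replicate. This held for 988 of all 20033 protein-coding genes (4.93%), all of them among the 5619 with a peak in both replicates.

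ZC3H13, a zinc finger subunit that keeps the complex in the nucleus, had 4 exonic peaks in replicate 1 and 9 in replicate 2 (ENSG00000123200.17, chromosome 13, 45954465 to 46052759, minus strand). Its density was 0.390 and 0.877 peaks per kb, so the order of the replicates was the opposite of that on VIRMA. A single pair of peaks was shared, in exon 18. The summits of this pair were 4 nt apart, the closest of any writer pair, with folds of 2.52 and 3.94 and q values of 1 and 0.156. The other 3 peaks of replicate 1 and 8 of replicate 2 had no partner, and 1 of them, in replicate 2, was the sole writer summit in a 5′ UTR.

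METTL16, the methyltransferase outside the complex (ENSG00000127804.13, chromosome 17, 2405562 to 2511891, minus strand), had 5 and 4 exonic peaks. The density was 0.560 and 0.448 peaks per kb, which was close in both replicates. Only the exon 5 pair was shared, with summits 32 nt apart and folds of 2.36 and 2.43. Of the other peaks, 3 had summits in the 3′ UTR, 1 in replicate 1 and 2 in replicate 2, and the nearest of these to the stop codon lay 354 nt past it. The highest METTL16 folds were 3.27 and 2.77, and no METTL16 peak had a q of at most 0.05.

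WTAP, the subunit that brings the catalytic pair to nuclear speckles, had 3 exonic peaks in each replicate (ENSG00000146457.16, chromosome 6, 159725585 to 159756319, plus strand). None of the 6 was shared. The 5 summits on the canonical mRNA had their nearest neighbour in the other replicate 271 to 705 nt away. The sixth, at position 159742075 in replicate 2, lay in an exon of a retained-intron transcript (ENST00000462110.1) and was the sole writer summit outside the canonical mRNAs. The same number of peaks thus came from different places.

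METTL14, which forms the catalytic core with METTL3 and helps to bind the substrate RNA, had 3 peaks in replicate 1 and 1 in replicate 2 (ENSG00000145388.15, chromosome 4, 118685392 to 118715433, plus strand). No pair was shared. All 4 summits lay in the coding sequence, in exons 6, 7, 8 and 10, although 5131 nt of the 6642 nt mRNA are 3′ UTR. The replicate 2 summit in exon 7 was 71 nt along the mRNA from the replicate 1 summit in exon 6. Folds ran from 2.12 to 2.34, and the mean of the highest folds, 2.23, stood at percentile 1.76 of genes with a peak in both replicates. These maxima were taken over only 3 peaks and 1 peak.

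RBM15 and RBM15B are RNA-binding paralogs with a SPOC domain that direct the complex to particular RNAs. RBM15 (ENSG00000162775.17, chromosome 1, 110338506 to 110346681, plus strand) had 1 exonic peak, in replicate 1, with its summit in the coding part of exon 1 and a fold of 2.35. A further replicate 1 peak, with a fold of 2.52, had its summit in the gene but outside its exons. RBM15B (ENSG00000259956.2, chromosome 3, 51391285 to 51397908, plus strand), whose mRNA is 1 exon of 6624 nt, had none. An exon of DCAF1, on the opposite strand, overlaps RBM15B. DCAF1 had 7 and 10 exonic peaks, and no summit among them lay in an RBM15B exon.

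METTL3, the catalytic subunit (ENSG00000165819.12, chromosome 14, 21498133 to 21511342, minus strand), had 0 exonic peaks in either replicate. Its canonical mRNA has 1980 nt, the shortest of the 9. A replicate 1 peak with a fold of 2.52 and a q of 1 had its summit inside the METTL3 gene but in an exon of TOX4, which lies on the opposite strand and overlaps METTL3. TOX4 had 6 and 3 exonic peaks in all. The lists carry no strand, so reads of these partners cannot be told apart where they overlap.

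**Figure D2:**
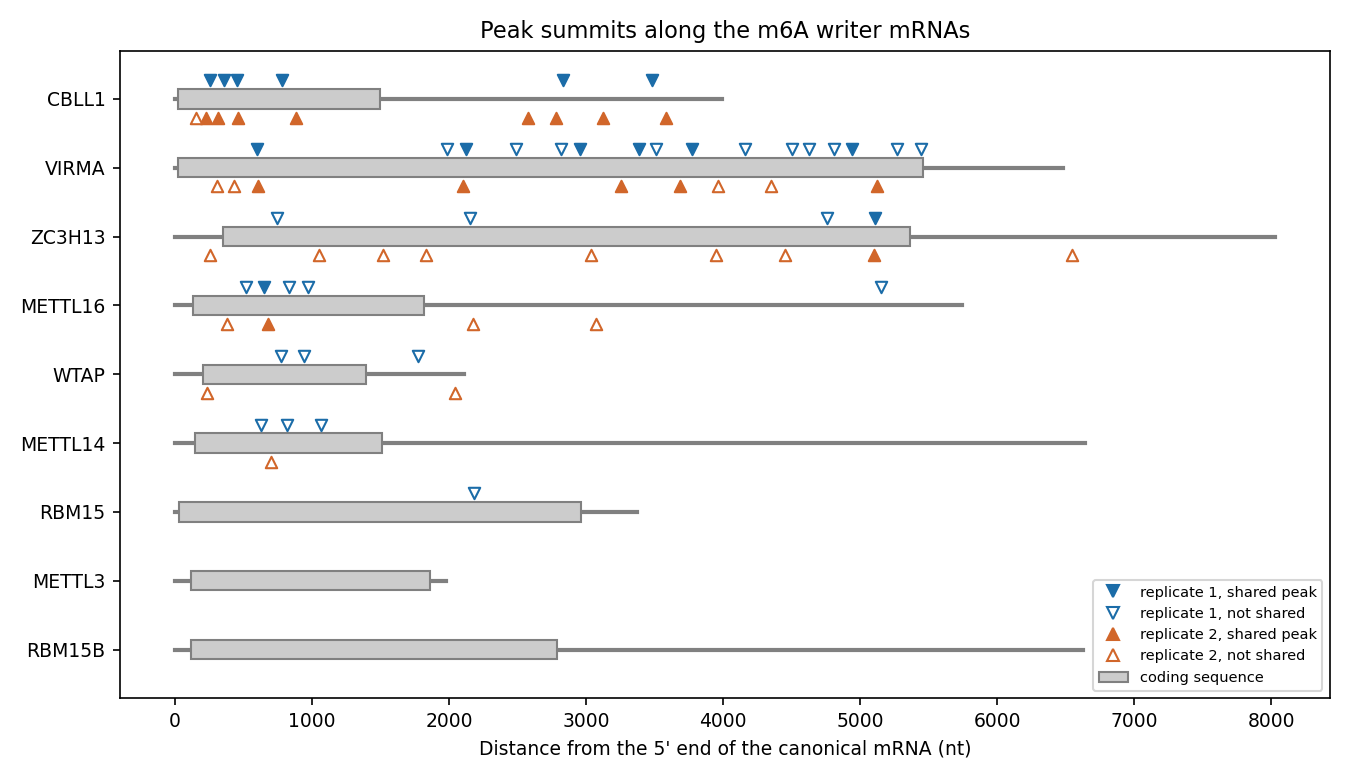
Summits along the canonical mRNA of each writer, drawn to scale in nt from the 5′ end, with the coding sequence as a grey box, replicate 1 above and replicate 2 below the line, and filled symbols for peaks that overlap a peak of the other replicate. Filled symbols cluster on CBLL1 and VIRMA, and 1 WTAP summit outside the canonical mRNA is not drawn.

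The next comparison asked how far the replicates called the same writer sites. With an overlap of at least 1 bp, 14 of 38 replicate 1 peaks (36.8%) and 15 of 35 replicate 2 peaks (42.9%) were shared. Among exonic peaks of all protein-coding genes, 61.0% of replicate 1 and 64.8% of replicate 2 peaks were shared. CBLL1 held 6 and 8 of the shared writer peaks, and without it 8 of 32 (25.0%) and 7 of 26 (26.9%) were shared, a mean of 26.0% ± 1.36 (SD, n = 2) against 39.8% ± 4.25 with it. The shared peaks formed 16 pairs, 8 on CBLL1, 6 on VIRMA and 1 each on ZC3H13 and METTL16. In 10 pairs the summits lay within 100 nt of each other, and the median distance was 72 nt. Across the 16 pairs, some of which share a peak, Pearson's r of log2 fold was 0.0738. These pairs come from 4 mRNAs and are not independent.

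Fold enrichment on the writers was low in both replicates. It ran from 2.16 to 5.68 in replicate 1, with a median of 2.66, and from 1.88 to 5.07 in replicate 2, with a median of 2.69. The mean of these medians was 2.68 ± 0.0195, whereas exonic peaks of all protein-coding genes had a mean of medians of 2.94 ± 0.0127 (SD, n = 2 each). The difference exceeded the spread between replicates, but it was not tested, since the genes were chosen with results of these lists known. Of the 73 writer peaks, 62 had a q of 1, which was 81.6% in replicate 1 and 88.6% in replicate 2. Among exonic peaks of all protein-coding genes, 60.8% and 65.7% had such a q. Only 1 of 38 peaks (2.63%) and 1 of 35 (2.86%) had a q of 0.05 or less, beside 10.2% and 7.81% of exonic peaks of all protein-coding genes.

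**Figure D3:**
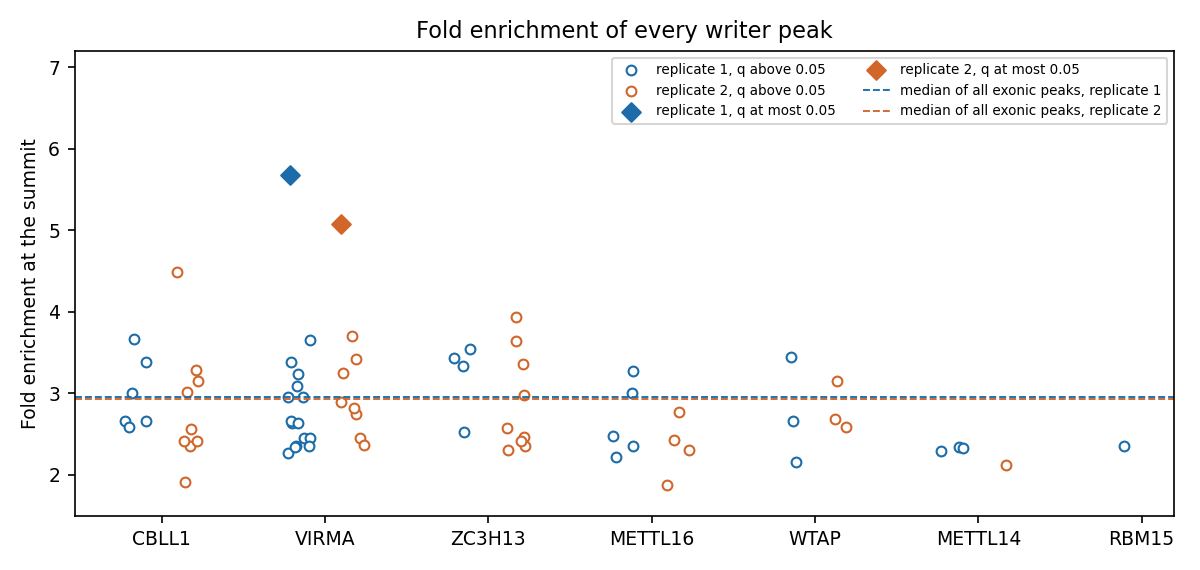
Fold enrichment at the summit (linear axis) of each exonic writer peak by gene and replicate, with diamonds for a q of at most 0.05 and dashed lines at the medians of all exonic peaks of protein-coding genes, 2.95 and 2.93. Both diamonds are VIRMA peaks, and METTL14 and RBM15 peaks lie below the lines.

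The position of summits within the mRNAs was examined with a window reaching 200 nt to each side of the stop codon, and coding sequence (CDS) and UTRs outside it. The CDS held 32 of 38 summits in replicate 1 and 25 of 34 in replicate 2, a mean of 78.9% ± 7.55. In all mRNAs it was 71.9% ± 1.13, which is within 1 SD of the writer value (SD, n = 2 each). The CDS makes up 48.3% of the length of the 9 writer mRNAs. The 3′ UTR makes up 41.3% of that length and held 4 and 8 summits, a mean of 17.0% ± 9.19, near the 16.0% ± 0.899 of all mRNAs. CBLL1 gave 6 of these 12, METTL16 gave 3, WTAP 2 and ZC3H13 1. The stop codon window held 2 summits, both on VIRMA in replicate 1, or 5.26% and 0% of writer summits in replicates 1 and 2. In all mRNAs it held 8.5% and 8.28%, and it makes up 7.85% of the length of the writer mRNAs. Only CBLL1 and VIRMA had a peak whose body covered the stop codon, 2 peaks in replicate 1 and 1 in replicate 2. Of the 72 peaks on canonical mRNAs, 56 lay wholly within 1 exon.

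How often motif letters lay near writer summits depended on the window. In windows reaching 50 nt to either side of the summit, read along the mRNA, TGGAC was present in 7 of 38 replicate 1 windows and 3 of 34 replicate 2 windows, a mean of 13.6% ± 6.79, beside 12.9% ± 0.0295 of windows on all mRNAs (SD, n = 2 each). GGAC, which TGGAC contains, was present in 35.9% ± 5.04 against 32.0% ± 0.0195, and GGACT in 10.8% ± 7.01 against 8.89% ± 0.0623. Each of these differences was smaller than the spread between replicates on the writers. With 25 nt on either side, TGGAC was present in 2.79% ± 0.219 of writer windows, 1 in each replicate, against 6.61% ± 0.0205 on all mRNAs. With 100 nt on either side, GGACT was present in 27.9% ± 5.19 against 17.6% ± 0.106, and TGGAC in 28.1% ± 1.18 against 24.7% ± 0.243 (SD, n = 2 each). These differences for GGACT and TGGAC with 100 nt on either side exceeded the spread between replicates. For GGAC, at 55.1% ± 3.5 against 53.3% ± 0.14 (SD, n = 2 each), the difference was smaller than the spread. With 25 nt, the count was 1 in each replicate, so that SD reflects only the unequal numbers of windows. None of these differences was tested. By gene, TGGAC windows numbered 5 of 25 on VIRMA, 3 of 15 on CBLL1, 1 of 13 on ZC3H13 and 1 of 4 on METTL14, and 0 on METTL16, WTAP and RBM15.

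Motif letters were also counted over the whole mRNAs. GGAC occurred 6.23 times per kb in RBM15, 5.59 in RBM15B and 4.55 in METTL3, the 3 writers without a peak in both replicates. In the other six it ranged from 2.26 per kb in CBLL1 to 4.63 in VIRMA. Those 3 also had the highest GC content. It was 49.9% in METTL3, 54.2% in RBM15 and 55.8% in RBM15B, and 37.8% in CBLL1 to 47.6% in METTL16 among the 6 with a peak in both. Across all protein-coding genes the median GC content was 45.5% for the 5619 with a peak in both replicates and 51.3% for the 12774 with none, and the median of GGAC per kb was 3.21 and 4.05. The part of base composition in these counts was not tested.

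**Figure D4:**
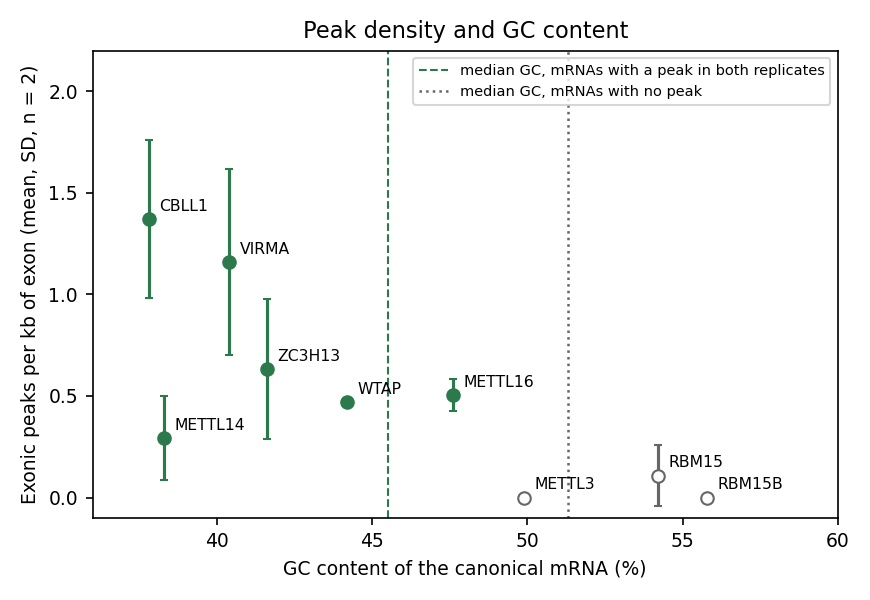
Exonic peaks per kb of exon (mean and SD over 2 replicates) against the GC content of the canonical mRNA for the 9 writers, filled where both replicates had a peak, with lines at the median GC content of all protein-coding mRNAs with a peak in both replicates (45.5%) and with none (51.3%). The open symbols METTL3, RBM15 and RBM15B are the 3 with the highest GC content, and CBLL1 has the lowest.

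Other genes of the m6A system were set beside the writers. Of 16 readers and erasers, 11 carried exonic peaks in each replicate, 1 in a single replicate and 4 in neither. Their highest densities were those of IGF2BP2 (2.35 ± 0.929 peaks per kb), PRRC2A (2.19 ± 0.310) and YTHDF1 (1.56 ± 0.441), all above CBLL1 by the mean (SD, n = 2 each). The intervals of IGF2BP2 and CBLL1 overlap at 1 SD, as do those of YTHDF1 and CBLL1. IGF2BP3 itself had 14 and 12 peaks, 1.52 ± 0.166 per kb (SD, n = 2). The order of these densities depends on the length used. Merged exons came to 8.54 kb for IGF2BP3, whose canonical mRNA has 4274 nt, but to 3.21 kb for YTHDF1, whose canonical mRNA has 3198 nt. Density per length of canonical mRNA was not ranked. The eraser FTO had 11 and 9 peaks and the eraser ALKBH5 had 1 in each replicate. Of the reader and eraser peaks, 62.0% and 71.1% were shared between replicates, against 36.8% and 42.9% on the writers. A peak with a q of at most 0.05 was present for 5 of the 16 in either replicate and for 3 in both, beside 10.3% and 4.93% of protein-coding genes.

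A list of other RNA methyltransferases, of SPEN (a SPOC domain relative of RBM15) and of genes that supply S-adenosylmethionine held 9 genes. Of these, SPEN and METTL4 had peaks in both replicates. SPEN, with 21 peaks in each, gave most of that list's shared peaks, 18 and 20. Its density of 1.39 per kb was close to that of CBLL1, whereas its relatives RBM15 and RBM15B had 1 peak between them. MAT2A, which makes S-adenosylmethionine and is an RNA target of METTL16, had 2 peaks in replicate 1 and 0 in replicate 2.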

How the data were processed

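The study's methods name Tophat2 for mapping the RIP reads to hg38 and MACS2 with default settings for peak calling, whereas the submitters' processing notes name fastp, HISAT2 and MACS2. The library used as control is not given in the sources used here. Each RIP replicate had its own deposited peak list. The deposited fold enrichment is a ratio of RIP pileup to local background, the deposited −log10 p and −log10 q were computed by the authors' caller for each peak, and the deposited score is the whole part of 10 times the −log10 p. No peak had a −log10 p under 2.0003 (replicate 1) or 2.00226 (replicate 2). Of exonic peaks of protein-coding genes, 60.8% in replicate 1 and 65.7% in replicate 2 had the highest possible q. The lists were therefore not limited by q, and the floors point to a limit on p. The study's methods name no such limit for the RIP peaks. Whether the named default settings gave these lists is thus uncertain, and it was not tested. Depth is unknown.

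Positions are 1-based on GRCh38, whose 24 chromosomes carry the names used in the lists, and 0 peaks ran past a chromosome end. Summits were assigned to genes by exons of GENCODE 44 without regard to strand, and to mRNA positions by the Ensembl canonical transcript. Density is peaks per kb of the merged exons of all annotated transcripts, so the order of genes can differ per length of canonical mRNA. Percentiles are shares of genes at or below the value. Peaks were shared at an overlap of at least 1 bp. No test was run, so the p and q values printed are the caller's. The members and lists were chosen with earlier results of these data known. Named genes were the 9 members, FTO, ALKBH5, IGF2BP3, MAT2A, SPEN and the 3 densest genes of each comparison list. TOX4, DCAF1, the pseudogenes and antisense genes, and the TGGAC sites of CBLL1 were chosen after their values were seen. Shares without CBLL1 were an alternative added after seeing the data. Alternatives were stricter limits on q and fold, other gene assignments, overlap rules, windows and transcripts, and leaving out each replicate. Position, region and overlap code was tested on simulated peaks. Python 3.11.15, numpy 2.4.6, pandas 2.3.3 and matplotlib 3.10.9 were used.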

Additional observations from a re-analysis of the deposited data

How the results depend on the processing

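The number of writer peaks per replicate (36.5) and of writers with a peak in both replicates (6) changed little with the rule for assigning peaks to genes. Stricter limits removed nearly all of them. A −log10 q of at least 5 left 0 peaks and 0 writers. A q of at most 0.05, and likewise a fold of at least 5, left 1 peak per replicate and 1 writer, VIRMA, with a median fold of 5.37, 0% shared, 100% of summits in the CDS and 0% in the 3′ UTR. The share of writer peaks in common was 24.7% when 50% of both peaks had to overlap and 27.4% when summits had to lie within 100 bp. With 25 nt on either side of the summit, TGGAC was present at 2.79%, GGAC at 15.6% and GGACT at 2.79% (all mRNAs 6.61%, 17.8% and 4.33%), and with 100 nt on either side these were 28.1%, 55.1% and 27.9% (all mRNAs 24.7%, 53.3% and 17.6%), as wider windows hold more sequence. TGGAC was present at 21.0% of summits of shared peaks, which numbered 14 and 15 and lay mostly on CBLL1 and VIRMA. The CBLL1 exon 3 site counts in both replicates although no called peak held it, and no share for shared peaks on all mRNAs is given here. Leaving out a replicate gave 35 to 38 peaks and 6 to 7 writers. With 2 replicates, each single value lies within 1 SD of their mean by construction, so this is no check of stability. Of 72 values for single genes under alternatives, 45 lay within 1.5 times the reported count. They include METTL3 and RBM15B, whose count of 0 could not fall under stricter limits. They also include values from leaving out a replicate, so the 45 is no measure of stability. No paired analysis was possible because the inputs were not analysed here and nothing was tested between groups.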

Other observations

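The 3′ UTRs of METTL14 (5131 nt), RBM15B (3839 nt) and METTL16 (3924 nt) are the longest of the writers, and they held 0, 0 and 3 summits over both replicates, whereas the 2492 nt 3′ UTR of CBLL1 held 6. Processed pseudogenes named for a writer, WTAPP1 and CBLL1P1, had 0 exonic peaks in either replicate, as did the antisense genes CBLL1-AS1 and RBM15-AS1.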
